A study of Mus musculus with 8 samples.

Results

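Adgre1, Csf1r, Cd68, Lyz2, Cd14, Mrc1, Cd163, Trem2, Mpeg1 and Plac8 are 10 genes used to recognize macrophages and monocytes in mouse tissue, and their RNA was followed in whole kidneys of 2 genotypes with and without ischemic injury. They were taken by gene symbol from the 54965 genes of the deposited table, and all 10 were found. Of these, 8 had a mean of at least 1 FPKM (fragments per kilobase of gene, scaled to the depth of the library) over the 8 libraries and were tested, while Trem2 and Cd163 were below it and are described by their levels and reads.

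Macrophages are phagocytes that live in the kidney between the tubules, and monocytes are blood cells that enter injured tissue and can become macrophages there. Macrophages depend for survival on the receptor CSF1R, which binds the growth factors CSF1 and IL-34, and the whole myeloid lineage depends on the transcription factor PU.1, the product of Spi1. In an ischemic kidney monocytes are recruited early, and macrophages take up dying cells and later take part in repair.

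The first group was the knockout 3 days after ischemia-reperfusion (I/R), an operation that interrupts the blood supply of the kidney and then lets it return. The second was the wild type 3 days after I/R, and the others were the knockout and the wild type without I/R, with 2 libraries in each of the 4 groups. The knockout is named UtxPax2 Cre in the labels and targets Utx (symbol Kdm6a in the table), which encodes a demethylase of histones, through Cre driven by Pax2, which is active in the kidney-forming lineages and not in the blood lineage that gives macrophages. No strain, age or sex is given in the labels. Whether the kidneys without I/R came from sham-operated mice is not stated for these samples. Nor do the labels link samples to animals. The p-values reflect the spread between 2 samples of a group, pooled over the 4 groups, and that spread may thus be technical. Kdm6a was at 1.59 and 1.83 FPKM in knockout I/R kidneys, 3.00 and 2.97 in wild-type I/R kidneys, 1.99 and 1.91 in knockout kidneys and 2.57 and 2.94 in wild-type kidneys, so every knockout library was below every wild-type library.

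PU.1 binds purine-rich DNA, and the core GAGGAA was looked for on both strands in the 250 bases before the RefSeq start of each gene, as 1 written sequence feature that genes of a lineage may share. RefSeq promoters of build GRCm38.p6 were at hand for 7 of the 10 genes, and 4 of them held at least 1 match. Among all 32851 promoters of that table, 23.3% held at least 1 match, 3.54% held 2 or more and 0.429% held 3 or more. Mrc1 (chr2:14229164-14229413, plus strand) held 3 matches, Plac8 (chr5:100572206-100572455, minus strand) held 2, and Cd68 (chr11:69666171-69666420, minus strand) and Trem2 (chr17:48346151-48346400, plus strand) held 1 each. These 4 promoters are shown 5′ to 3′ on the strand of the gene because they hold every match found; capitals mark GAGGAA or its reverse complement TTCCTC.
Mrc1: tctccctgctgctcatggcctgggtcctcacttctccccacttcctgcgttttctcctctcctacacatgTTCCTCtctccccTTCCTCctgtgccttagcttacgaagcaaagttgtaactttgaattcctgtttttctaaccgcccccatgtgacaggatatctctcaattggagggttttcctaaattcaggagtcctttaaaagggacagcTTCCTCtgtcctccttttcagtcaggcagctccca
Plac8: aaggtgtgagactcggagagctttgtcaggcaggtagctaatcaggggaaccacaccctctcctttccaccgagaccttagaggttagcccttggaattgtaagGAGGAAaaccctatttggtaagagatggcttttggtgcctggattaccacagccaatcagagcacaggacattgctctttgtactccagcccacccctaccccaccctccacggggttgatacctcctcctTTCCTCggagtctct
Cd68: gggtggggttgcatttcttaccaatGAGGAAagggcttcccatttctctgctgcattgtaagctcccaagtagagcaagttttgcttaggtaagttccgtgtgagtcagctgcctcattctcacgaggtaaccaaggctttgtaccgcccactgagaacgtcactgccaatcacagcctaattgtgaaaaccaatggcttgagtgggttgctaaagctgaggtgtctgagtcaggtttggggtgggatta
Trem2: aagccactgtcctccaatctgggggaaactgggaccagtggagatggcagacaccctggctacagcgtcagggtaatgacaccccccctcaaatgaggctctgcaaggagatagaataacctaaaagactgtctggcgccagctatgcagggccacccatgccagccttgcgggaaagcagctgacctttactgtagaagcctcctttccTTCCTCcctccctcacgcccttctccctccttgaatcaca
Counted from the RefSeq starts, the matches nearest to a start began 15 bases before it in Plac8, 35 in Mrc1 and 40 in Trem2, whereas the match in Cd68 began 225 bases before it. The RefSeq start of Plac8 lies 40 bases inside the gene as deposited, so its nearest match lies within the deposited gene. A match is a run of letters and not a measured binding site.

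Reads assigned to genes numbered 16780542 to 18497835 per library, and 3 reads, the floor taken for a count of 0, equal 0.154 to 0.208 FPKM at a length of 1 kb. This floor accounts for counting error alone. The library size behind the FPKM was 0.857 to 0.905 of the reads assigned to genes without I/R. After I/R it was 0.990 and 1.01 in the knockout and 1.07 and 1.05 in the wild type. The scaling of the deposited values thus differed with I/R and, after I/R, between the genotypes. Kidney tubule markers summed to 2378 to 4486 FPKM in every library, as the tissue label has it. Library 1 of the wild type without I/R stood apart in blood cell genes. The 10 pan-leukocyte genes summed to 22.0 and 21.7 FPKM in the knockout libraries without I/R, and to 55.0 in wild type 1 and 22.4 in wild type 2. The 8 B and plasma cell markers summed to 671 against 250 FPKM in wild type 2, the 10 T cell markers to 15.8 against 6.14 and the 6 red blood cell genes to 816 against 412. Where leaving it out moved a difference of the 10 genes by over 1.5 times or turned its direction, the value without it is given too.

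**Figure D1:**
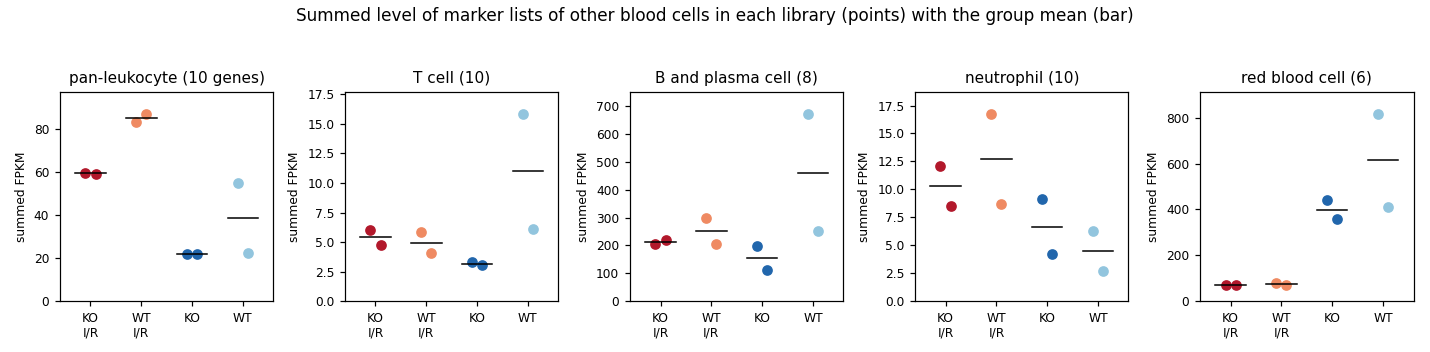
Summed FPKM of 5 marker lists of other blood cells in each library (points) with the mean of the group (bar), in knockout I/R, wild-type I/R, knockout and wild-type kidneys. Wild type 1 is the upper of the 2 wild-type points and lies at 55.0 for pan-leukocyte genes and 671 for B and plasma cell markers, against 22.4 and 250 in wild type 2.

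Of the 8 tested genes, 7 were higher 3 days after I/R in each genotype, and Csf1r was the exception in both. The limma test on log2(FPKM + 1) with Benjamini-Hochberg adjustment over 13304 genes called 7 of 8 higher in the knockout, where 8.95% of all tested genes were called higher and 20.7% in either direction. It called 7 of 8 higher in the wild type, where 17.4% of all tested genes were called higher and 37.5% in either direction. Both injured libraries lay above both uninjured ones for 8 of 8 genes in the knockout, against 27.8% of all tested genes, and for 7 of 8 in the wild type, against 33.4%. Mrc1 passed the filter on low values through the injured kidneys alone and so had to differ. The median log2 difference of the 8 genes was 1.76 in the knockout and 2.03 in the wild type, against -0.03 over all tested genes in each. Other blood and tissue genes moved with them. Of 10 pan-leukocyte genes, 6 were higher after I/R in each genotype, with medians of 1.14 in the knockout and 1.07 in the wild type. Red blood cell genes were lower for 5 of 6 in the knockout and 6 of 6 in the wild type. The gene not called in the knockout was Slc4a1, at -0.26 there and -1.26 in the wild type. The tubule marker Atp6v1b1 was at -0.09 and -0.89. Which cells of the kidney held the RNA of Slc4a1 was not tested. The globin gene Hba-a1 was at -2.69 and -3.06. Tubule markers were lower for 0 of 10 in the knockout and 8 of 10 in the wild type. The part of these other genes in the rise of the 10 genes was not tested. In bulk tissue, more cells of a type and more RNA per cell cannot be told apart.

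Csf1r (ENSMUSG00000024621, chr18:61105572-61132149), the receptor on which macrophages depend for survival, had 16.0 and 16.5 FPKM in knockout I/R kidneys, against 14.8 and 10.5 in knockout kidneys. In the wild type it had 15.5 and 17.9 FPKM after I/R, against 15.9 and 11.7 without. The groups did not overlap in the knockout and overlapped in the wild type, where 1 uninjured kidney was above 1 injured kidney. Csf1r differed by a log2 of 0.36 ± 0.18 (SE) in the knockout (limma, adjusted p = 0.214, 95% interval -0.08 to 0.79) and by 0.27 ± 0.18 in the wild type (adjusted p = 0.299, interval -0.17 to 0.70). Without wild type 1 the wild-type difference was 0.47 (adjusted p = 0.124). With each library scaled to an equal sum of FPKM, both differences passed the threshold, at 0.60 (adjusted p = 0.0473) and 0.55 (adjusted p = 0.0393), and the median of all genes moved by 0.18 and 0.22 with that scaling. Over the alternatives tried, the adjusted p ran from 0.0473 to 0.621 in the knockout and from 0.0393 to 0.858 in the wild type. Csf1r shares 871 bases with Hmgxb3 on the opposite strand, a gene at 5.87 to 7.16 FPKM, and as no source states strand-aware counting its level is uncertain.

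Adgre1 (ENSMUSG00000004730, chr17:57358691-57483527) encodes F4/80, the classical surface marker of mouse macrophages. It had 5.51 and 6.08 FPKM in knockout I/R kidneys, against 1.26 and 1.68 in knockout kidneys, and 7.25 and 7.32 in wild-type I/R kidneys, against 1.73 and 1.09 in wild-type kidneys. Every injured kidney was above every uninjured one, by a log2 of 1.46 ± 0.15 in the knockout (limma, adjusted p = 0.00192) and 1.79 ± 0.15 in the wild type (adjusted p = 2.46e-04).

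The genes of the phagocyte's digestive and killing apparatus moved in the same direction. Cd68 (ENSMUSG00000018774, chr11:69664213-69666153), a glycoprotein of endosomes and lysosomes, had 9.55 and 10.05 FPKM in knockout I/R kidneys, against 1.65 and 2.57 in knockout kidneys, and 12.5 and 16.6 in wild-type I/R kidneys, against 3.29 and 2.07 in wild-type kidneys. The injured kidneys of both genotypes lay above all uninjured ones. Cd68 rose by a log2 of 1.81 ± 0.21 in the knockout (limma, adjusted p = 0.00315) and 2.09 ± 0.21 in the wild type (adjusted p = 5.38e-04).

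Mpeg1 (ENSMUSG00000046805, chr19:12460779-12465284), a pore-forming protein that acts on engulfed bacteria, had the smallest standard error of the 8 genes. It had 14.8 and 14.0 FPKM in knockout I/R kidneys, against 3.11 and 3.55 in knockout kidneys, and 15.2 and 16.0 in wild-type I/R kidneys, against 4.62 and 4.08 in wild-type kidneys. The 4 injured kidneys were close to one another and far above the 4 uninjured ones. Mpeg1 rose by a log2 of 1.83 ± 0.09 in the knockout (limma, adjusted p = 2.63e-04) and 1.64 ± 0.09 in the wild type (adjusted p = 6.86e-05).

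Lyz2 (ENSMUSG00000069516, chr10:117277331-117282321), the lysozyme gene of myeloid cells, was the most abundant of the 10 genes per length. It had 93.1 and 82.7 FPKM in knockout I/R kidneys, against 17.5 and 15.9 in knockout kidneys, and 118 and 163 in wild-type I/R kidneys, against 42.8 and 13.2 in wild-type kidneys. The groups did not overlap, but wild type 1, the library with high blood cell genes, was at 42.8 FPKM and the other 3 uninjured kidneys at 13.2 to 17.5. Lyz2 rose by a log2 of 2.33 ± 0.46 in the knockout (limma, adjusted p = 0.0159) and 2.48 ± 0.46 in the wild type (adjusted p = 0.00586). Without wild type 1 the wild-type difference was 3.29. The call in the knockout was lost with no filter on low values (adjusted p = 0.0556), without knockout I/R library 1 (0.0785) or 2 (0.0850) and without knockout library 1 (0.0653), and the adjusted p ran from 0.00191 to 0.0850 over all alternatives. Its paralog Lyz1 was listed at 0 to 0.907 FPKM, with 0 to 18 reads, and since the 2 genes are near copies reads between them could have been split.

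Cd14 (ENSMUSG00000051439, chr18:36725074-36726736) encodes the coreceptor that passes bacterial lipopolysaccharide to Toll-like receptor 4. It had 10.2 and 12.2 FPKM in knockout I/R kidneys, against 3.13 and 2.41 in knockout kidneys, and 26.5 and 24.6 in wild-type I/R kidneys, against 4.09 and 2.83 in wild-type kidneys. All injured kidneys were above all uninjured ones, and the wild-type injured kidneys stood highest. Cd14 rose by a log2 of 1.70 ± 0.16 in the knockout (limma, adjusted p = 0.00171) and 2.59 ± 0.16 in the wild type (adjusted p = 1.10e-04).

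Plac8 (ENSMUSG00000029322, chr5:100553725-100572245) is a small cysteine-rich protein whose RNA is abundant in classical monocytes. It had 21.1 and 19.1 FPKM in knockout I/R kidneys, against 5.78 and 5.83 in knockout kidneys, and 35.7 and 30.3 in wild-type I/R kidneys, against 5.20 and 3.88 in wild-type kidneys. As with Cd14, the 4 groups fell into 3 levels, with the wild-type injured kidneys highest, the knockout injured kidneys next and the uninjured kidneys lowest. Plac8 rose by a log2 of 1.63 ± 0.13 in the knockout (limma, adjusted p = 0.00114) and 2.62 ± 0.13 in the wild type (adjusted p = 5.58e-05).

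The scavenger receptor genes Mrc1 and Cd163 differed from each other. Mrc1 (ENSMUSG00000026712, chr2:14229392-14332057), the mannose receptor of tissue macrophages, had 5.04 and 5.76 FPKM in knockout I/R kidneys, against 0.815 and 0.776 in knockout kidneys, and 5.52 and 7.11 in wild-type I/R kidneys, against 1.19 and 0.573 in wild-type kidneys. Injured kidneys were above uninjured ones without overlap, and without I/R its mean came to 0.795 FPKM in knockout kidneys and to 0.880 FPKM in wild-type kidneys. It rose by a log2 of 1.83 ± 0.18 in the knockout (limma, adjusted p = 0.00185) and 1.97 ± 0.18 in the wild type (adjusted p = 3.51e-04).

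Cd163 (ENSMUSG00000008845, chr6:124304656-124330527), the receptor for hemoglobin bound to haptoglobin, stayed low in every library. It had 0.622 and 0.504 FPKM in knockout I/R kidneys, against 0.215 and 0.0670 in knockout kidneys, and 0.295 and 0.443 in wild-type I/R kidneys, against 0.326 and 0.136 in wild-type kidneys. The groups overlapped in the wild type and did not in the knockout, where the ratio of means was 3.99 on 109 reads after I/R and 23 without. With no filter on low values the log2 difference in the knockout was 0.46 (limma, adjusted p = 0.0832) and in the wild type 0.16 (adjusted p = 0.451).

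Trem2 (ENSMUSG00000023992, chr17:48346401-48354147), a lipid-sensing receptor of macrophages that take up cell debris, was close to the floor without injury. It had 0.767 and 1.04 FPKM in knockout I/R kidneys, against 0.112 and 0.0864 in knockout kidneys, and 1.08 and 1.24 in wild-type I/R kidneys, against 0.142 and 0.0625 in wild-type kidneys. Every injured kidney was above every uninjured one, and the ratio of means was 9.13 in the knockout, on 159 against 15 reads, and 11.4 in the wild type, on 215 against 16 reads. With no filter on low values the log2 difference, which understates a change at such levels, was 0.79 in the knockout (limma, adjusted p = 0.0183) and 0.97 in the wild type (adjusted p = 0.00311).

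**Figure D2:**
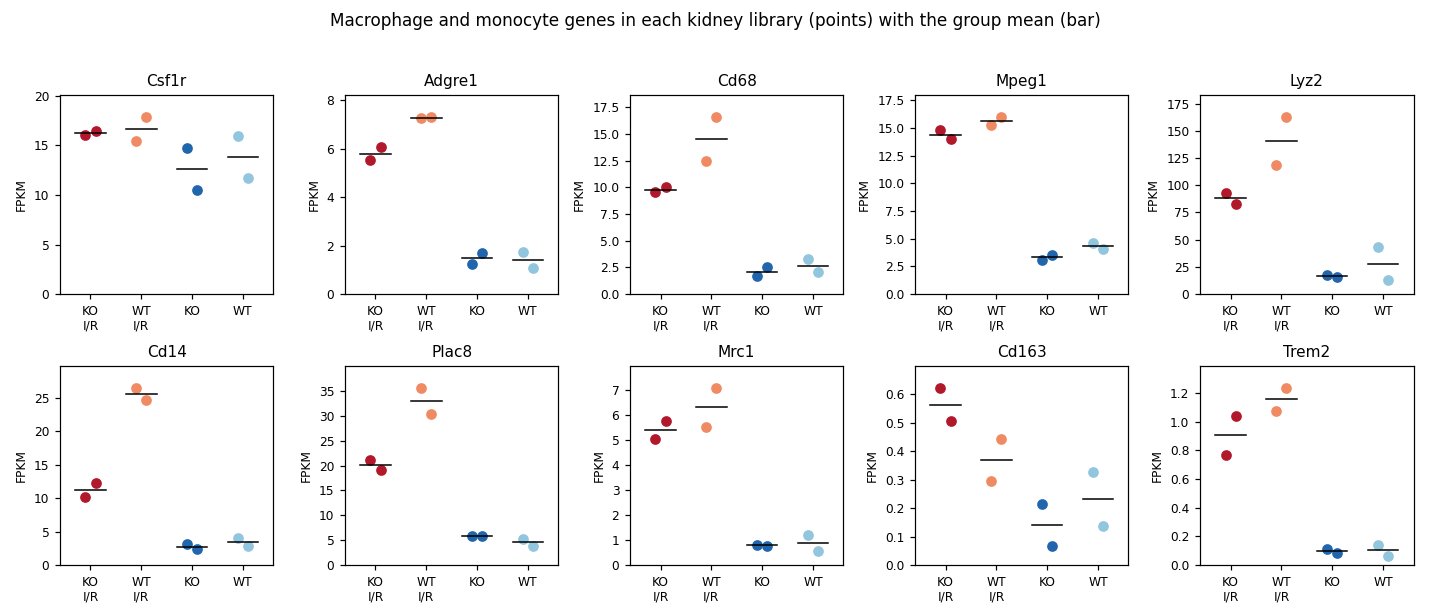
FPKM of the 10 genes in each library (points) with the mean of the group (bar), in knockout I/R, wild-type I/R, knockout and wild-type kidneys, each panel with its own scale from 0. Csf1r stays between 10.5 and 17.9 FPKM in all libraries, whereas Cd14 has 10.2 and 12.2 FPKM in knockout I/R kidneys and 26.5 and 24.6 in wild-type I/R kidneys.

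Set against the wild type after the same injury, the knockout kidneys had lower Cd14 and Plac8, and none of the 8 genes was higher. The call was made for 2 of 8 genes, both lower, where 3.22% of all tested genes were called lower, 2.79% higher and 6.01% in either direction. All 8 differences were below 0, with a median log2 of -0.40 against 0.01 over all tested genes, but that of Csf1r was 0.07 without wild-type I/R library 2. In 6 of the 8 both knockout libraries lay below both wild-type libraries, which was so for 28.6% of all tested genes, and Mrc1 and Csf1r overlapped.

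Cd14 averaged 11.2 ± 1.45 FPKM in knockout I/R kidneys and 25.6 ± 1.31 in wild-type I/R kidneys (SD, n = 2 each), a ratio of 0.439 and a log2 difference of -1.12 ± 0.16 (limma, adjusted p = 0.0191). Plac8 averaged 20.1 ± 1.43 FPKM in knockout I/R kidneys and 33.0 ± 3.78 in wild-type I/R kidneys, a ratio of 0.609 and a log2 difference of -0.69 ± 0.13 (limma, adjusted p = 0.0355). Both calls were lost without knockout I/R library 1 or 2 or wild-type I/R library 1 or 2, where a group of 1 library is assumed to vary like the others, with an adjusted p of 0.0850 to 0.143 for Cd14 and 0.101 to 0.174 for Plac8. With no filter on low values the adjusted p was 0.0572 for Cd14 and 0.0872 for Plac8, and with a filter at 0.1 FPKM it was 0.0538 for Plac8. Over all alternatives it ran from 0.00106 to 0.143 for Cd14 and from 0.00534 to 0.174 for Plac8, with every difference below 0.

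Cd68 averaged 9.80 ± 0.348 FPKM in knockout I/R kidneys and 14.6 ± 2.91 in wild-type I/R kidneys, a log2 difference of -0.52 ± 0.21 that missed the threshold (limma, adjusted p = 0.199, interval -1.02 to -0.01). Lyz2 averaged 87.9 ± 7.36 FPKM in knockout I/R kidneys and 141 ± 31.6 in wild-type I/R kidneys, with a difference of -0.66 ± 0.46 (adjusted p = 0.449, interval -1.75 to 0.44). For Adgre1 the difference was -0.29 ± 0.15 (adjusted p = 0.295). The remaining 3 differences were smaller in size, at -0.19 for Mrc1, -0.11 for Mpeg1 and -0.03 for Csf1r, and the interval for Mpeg1 ran from -0.32 to 0.10. Below the filter, both knockout libraries lay below both wild-type libraries for Trem2, with a ratio of means of 0.781 on 159 against 215 reads, and Cd163 was above the wild type in both, with a ratio of 1.52 on 109 against 76 reads.

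Without I/R no difference between the genotypes passed the threshold for any of the 8 genes. Of the 8, 0 were called by limma, where 0.00752% of all tested genes were called, and limma-voom on recovered reads called 0 as well. At an unadjusted p under 0.05 there was 1, Mpeg1, with 3.11 and 3.55 FPKM in knockout kidneys against 4.62 and 4.08 in wild-type kidneys and a log2 difference of -0.31 ± 0.09 (adjusted p = 0.431). Plac8 went the other way, with 5.78 and 5.83 FPKM in knockout kidneys against 5.20 and 3.88 in wild-type kidneys and a difference of 0.31 ± 0.13 (adjusted p = 0.543). These were the 2 genes whose groups did not overlap, 1 with the knockout lower in level and 1 with it higher, against 16.5% and 21.5% of all tested genes. For Lyz2 the difference was -0.50, with an interval of -1.59 to 0.59. Of the 8 differences 6 were below 0, with a median of -0.18, but without wild type 1 only 2 were, with a median of 0.14. Without that library Lyz2 was at 0.31, Mrc1 at 0.19 against -0.05 with it, Csf1r at 0.09 against -0.12 and Cd68 at 0.0057 against -0.24. Cd14 was at -0.03 against -0.24, Plac8 at 0.48 against 0.31 and Adgre1 at 0.24 against 0.04. The direction thus turned without that library for 4 of the 8 genes.

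**Figure D3:**
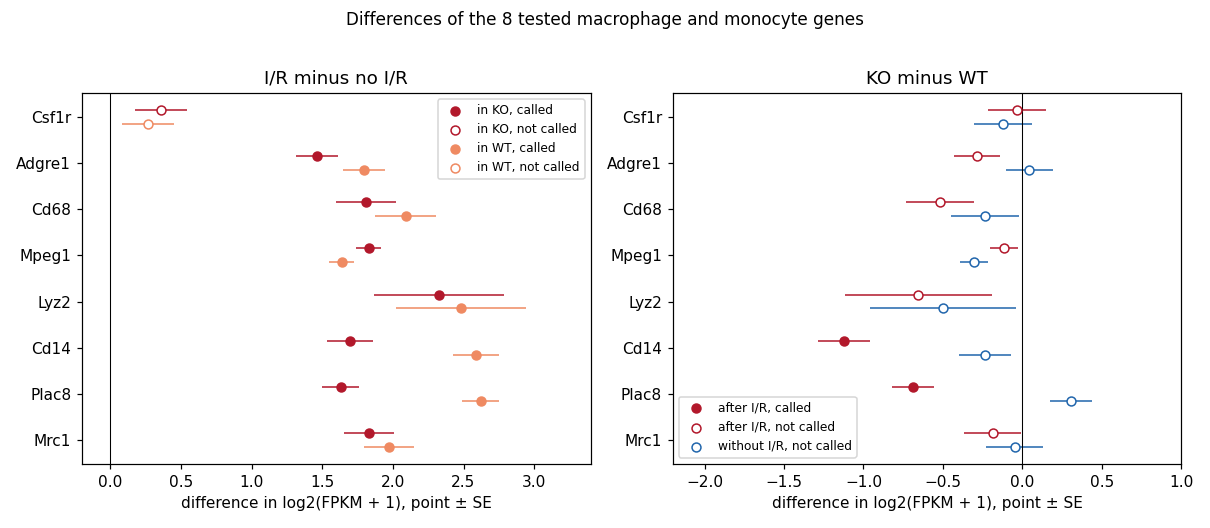
Log2 differences (points, with bars of 1 SE) of the 8 tested genes, for I/R against none in each genotype on the left and for knockout against wild type in each treatment on the right; filled points passed the adjusted p threshold of 0.05. On the left 7 genes lie between 1.46 and 2.62 and Csf1r below 0.4, and on the right only Cd14 at -1.12 and Plac8 at -0.69 are filled.

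Whether the I/R difference itself depended on the genotype was tested by an interaction term. For none of the 8 genes did it pass the threshold in limma, where 0.286% of all tested genes were called, and limma-voom called 0 as well; 2 genes had an unadjusted p under 0.05. These were Plac8, at -0.99 ± 0.19 (adjusted p = 0.0850, interval -1.43 to -0.55), and Cd14, at -0.89 ± 0.23 (adjusted p = 0.137, interval -1.43 to -0.34), both with the smaller I/R difference in the knockout. The median over the 8 genes was -0.22, and Mpeg1 and Csf1r were above 0. Without wild type 1 the median was -0.52, with Csf1r at -0.12 against 0.09, Lyz2 at -0.97 against -0.15, Cd68 at -0.52 against -0.28, Mrc1 at -0.38 against -0.14, Adgre1 at -0.52 against -0.33 and Mpeg1 at 0.12 against 0.19.

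The levels were also set against Adgre1 of the same library, as a description of how the genes moved relative to one another. The ratio of Cd14 to Adgre1 was 1.85 and 2.01 in knockout I/R kidneys, 3.66 and 3.37 in wild-type I/R kidneys, 2.48 and 1.43 in knockout kidneys and 2.36 and 2.60 in wild-type kidneys. The ratio was thus above all others in the wild-type injured kidneys, and the knockout injured kidneys lay within the range of the knockout kidneys without injury. The ratio of Csf1r to Adgre1 was 2.91 and 2.71 in knockout I/R kidneys and 2.14 and 2.45 in wild-type I/R kidneys, against 11.7 and 6.27 in knockout kidneys and 9.21 and 10.7 in wild-type kidneys. Mpeg1 kept close to Adgre1, with ratios of 2.10 to 2.68 in injured kidneys of both genotypes and 2.11 to 3.75 in uninjured ones.

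**Figure D4:**
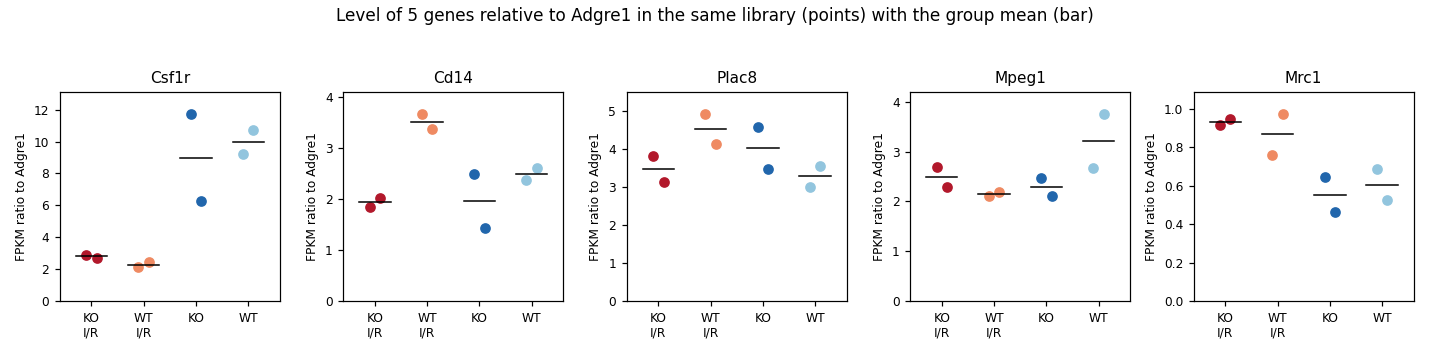
FPKM of 5 genes divided by the FPKM of Adgre1 in the same library (points) with the mean of the group (bar), in knockout I/R, wild-type I/R, knockout and wild-type kidneys. The ratio for Csf1r is 2.14 to 2.91 in injured and 6.27 to 11.7 in uninjured kidneys, and that for Cd14 is highest in the wild-type I/R kidneys, at 3.66 and 3.37.

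The ligands of CSF1R were measured in the same libraries. Csf1 had 7.38 and 7.39 FPKM in knockout I/R kidneys, 13.2 and 14.3 in wild-type I/R kidneys, 2.06 and 1.94 in knockout kidneys and 2.29 and 1.38 in wild-type kidneys. It rose with I/R in both genotypes, by a log2 of 1.48 in the knockout (limma, adjusted p = 0.00185) and 2.40 in the wild type (adjusted p = 9.94e-05), and was lower in the knockout after I/R, with a difference of -0.81 ± 0.15 (adjusted p = 0.0308). Il34 had 18.3 and 19.4 FPKM in knockout I/R kidneys, 44.2 and 40.7 in wild-type I/R kidneys, 21.4 and 17.2 in knockout kidneys and 17.96 and 16.4 in wild-type kidneys. The wild-type injured kidneys stood alone, and the other 6 libraries lay between 16.4 and 21.4 FPKM. Il34 differed by a log2 of -0.02 ± 0.11 with I/R in the knockout (limma, adjusted p = 0.905) and rose by 1.26 ± 0.11 in the wild type (adjusted p = 3.35e-04), and the interaction term was -1.28 ± 0.16 (adjusted p = 0.0450, and 0.0105 to 0.212 over the alternatives, 0.0650 with the replicate block). After I/R, Il34 was lower in the knockout, at -1.13 ± 0.11 (adjusted p = 0.00929). The genotype call after I/R was lost for both ligands without any single I/R library, with an adjusted p of 0.101 to 0.184 for Csf1 and 0.0513 to 0.103 for Il34. For Csf1 it was lost as well with a pseudocount of 0.1 (0.0593) and with no filter on low values (0.0814).

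**Figure D5:**
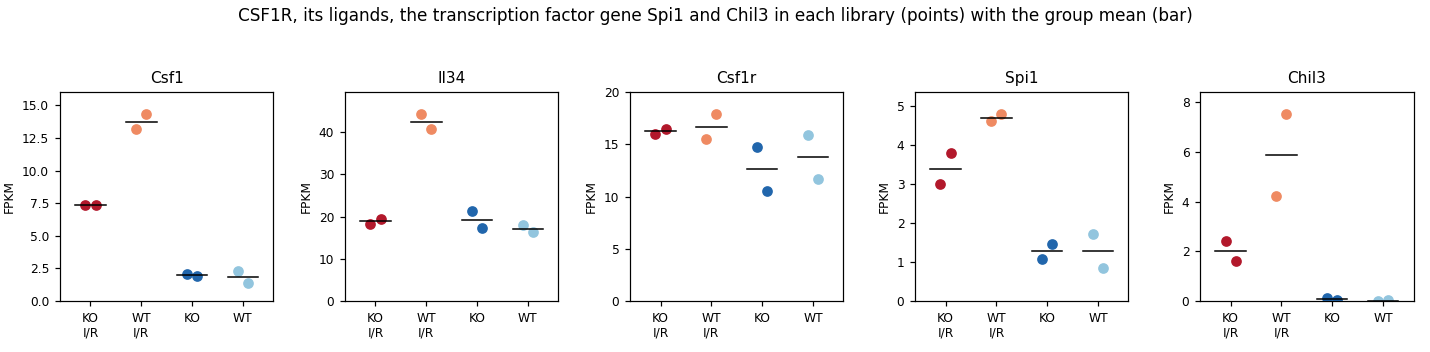
FPKM of the CSF1R ligands Csf1 and Il34, of Csf1r, of the transcription factor gene Spi1 and of the monocyte gene Chil3 in each library (points) with the mean of the group (bar). Il34 is at 44.2 and 40.7 FPKM in wild-type I/R kidneys and between 16.4 and 21.4 in the other 6 libraries, while Csf1r differs little between groups.

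Wider lists of the myeloid lineage moved with the 10 genes after I/R. Among core macrophage genes outside the 10, 8 of 9 tested were higher in the knockout and 9 of 9 in the wild type, with medians of 1.38 and 1.68; they include Ctss, a lysosomal protease, at 1.70 in the knockout and the complement genes C1qc at 1.67 in the knockout and C1qb at 2.08 in the wild type. Of monocyte recruitment chemokines and receptors, 8 of 9 were higher in the knockout and 7 of 9 in the wild type. Among them was Ccl2, a chemokine that draws monocytes, at 1.92 and 2.78, with ratios of means of 12.1 and 20.3. However, at least Ccl2, Ccl7, Ccl12, Ccr1 and Ccr2, and Fcgr1 of the core list, passed the filter through the injured kidneys alone. These genes had to be higher. Spi1 rose by 0.95 in the knockout (limma, adjusted p = 0.0186) and 1.35 in the wild type (adjusted p = 0.00219). Its call in the knockout was lost with no filter (0.0610), without knockout I/R library 1 (0.0562) or 2 (0.123) and without knockout library 1 (0.0905). The list of lipid-associated and repair genes was led by Spp1, the secreted protein osteopontin. Spp1 rose by 2.97 in the knockout and 4.17 in the wild type, while Lpl, a lipase, fell by -1.49 and -1.66. This list summed to 5278 and 5531 FPKM in knockout I/R kidneys and 8259 and 7947 in wild-type I/R kidneys. The 10 genes summed to 177 and 168 FPKM in the former and 238 and 284 in the latter. Which cells of the kidney held the RNA of this list was not tested.

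Not every gene tied to macrophages rose. Of 7 tested resident and scavenger genes, Pf4, Mrc1 and Stab1 were higher and Cd36, a fatty acid receptor also found in other kidney cells, was lower in both genotypes. Of the 11 genes of inflammatory activation and the 13 of alternative activation, 1 and 4 were above the filter, and all 5 were higher in both genotypes. Of these, Mrc1 and Chil3 passed the filter through the injured kidneys alone, so they had to be higher. The 5 were the interferon-induced chemokine gene Cxcl10 in the first list, and Mrc1, Chil3, Mgl2 and Il4ra in the second. Of 12 tested lineage and survival genes 7 were higher in the knockout and 6 in the wild type. Of 10 genes of CD14 and Toll-like receptor 4 signaling 4 and 6 were higher. At least Lbp among these passed the filter through the injured kidneys alone, so it had to be higher. Of 11 genes of killing and Fc receptors 8 were higher in each. Among them Fcgr1, Ncf1 and Ncf4 passed the filter through the injured kidneys alone, so they had to be higher.

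Between the genotypes after I/R, few genes of these lists were called. Fcgr3, an IgG receptor, was the only core macrophage gene outside the 10 that was lower in the knockout, at -0.63 (limma, adjusted p = 0.0380). Of 9 tested monocyte genes 3 were lower, namely Cd14, Plac8 and Chil3, a chitinase-like protein of monocytes, which had 2.43 and 1.62 FPKM in knockout I/R kidneys against 4.22 and 7.51 in wild-type I/R kidneys. Chil3 differed by -1.15 (limma, adjusted p = 0.0455), a call lost when any 1 of the 8 libraries was left out, and its uninjured levels were 0 to 0.127 FPKM. Of 12 lipid-associated and repair genes 4 were lower, with Lgals3 (galectin-3) at -0.94, Ctsd (a lysosomal protease) at -0.74 and Spp1 at -0.61, and Mertk, an efferocytosis receptor, was higher at 0.47. The calls of Fcgr3, Lgals3, Ctsd, Spp1 and Mertk were each lost without knockout I/R library 1 or 2, with an adjusted p of 0.0614 to 0.256. They were lost also without wild-type I/R library 2 for Fcgr3 and Ctsd, without either wild-type I/R library for Spp1 and Mertk, and without either wild-type library for Fcgr3 and Mertk. With the replicate block Spp1 (0.0518) and Mertk (0.0559) lost the call, and with equal sums Mertk did, at 0.37 (adjusted p = 0.0960). None of the 9 recruitment genes was called, and of 10 genes of CD14 and Toll-like receptor 4 signaling Cd14 was the 1 called. Tubular injury genes, which also mark the severity of damage in tubule cells, were lower in the knockout for 5 of 6, with Lcn2 at -2.04 and Havcr1 at -1.29, and their sum was 485 to 499 FPKM in knockout I/R kidneys and 1097 to 1201 in wild-type I/R kidneys. Tubule markers summed to 3447 to 3533 FPKM in knockout I/R kidneys and 2378 to 2394 in wild-type I/R kidneys. What part injury or tubule content has in the differences of the 10 genes was not tested. The same holds for the lipid-associated and repair genes, whose cells of origin were not identified.

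Markers of other blood cells were also set beside the genotype differences. After I/R, pan-leukocyte genes summed to 59.4 to 59.8 FPKM in knockout kidneys and 83.6 to 87.0 in wild-type kidneys, and 0 of 10 were called. The 10 neutrophil markers summed to 8.48 to 12.1 FPKM in knockout I/R kidneys and 8.71 to 16.7 in wild-type I/R kidneys, with 0 of 3 tested called, and Elane, Ly6g, Mpo, Ngp and Retnlg were at 0 in some libraries. Between the genotypes after I/R, 0 of 2 tested T cell, 0 of 4 B and plasma cell and 0 of 1 dendritic cell markers were called. Of 6 red blood cell genes 1 was called, Slc4a1, higher in the knockout at 0.85 (limma, adjusted p = 0.0126). The median of the 6 was -0.09. Cd8a of cytotoxic T cells rose with I/R in the knockout (1.10, limma, adjusted p = 0.00574), a call lost without knockout I/R library 2. It fell in the wild type (-0.88, adjusted p = 0.00485). Between the genotypes Cd8a differed by -1.39 without I/R (adjusted p = 0.220), without overlap, and by 0.59 after I/R (adjusted p = 0.0744). Trac, the other tested T cell marker, was at -0.13 with I/R in the knockout (adjusted p = 0.834) and -0.69 in the wild type (adjusted p = 0.210). The part of other leukocytes in the levels of Cd14, Lyz2 and Plac8, which such cells also express, was not tested.

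Genes whose pattern over the 8 libraries was most like the median of the 8 tested genes were found by the root-mean-square difference of centred log2(FPKM + 1). The 6 closest were Vim at 0.10, Ckap2l and Birc5 at 0.11, C1qb at 0.11, Ctss at 0.13 and Fbln1 at 0.14. C1qb and Ctss are macrophage genes, Ckap2l and Birc5 act in cell division, Vim is an intermediate filament of mesenchymal cells and leukocytes, and Fbln1 is a matrix protein. Among the 8 genes themselves Mrc1 followed the median most closely, at 0.09, and Csf1r least, at 0.79. Vim averaged 25.1 FPKM in knockout I/R kidneys, 37.2 in wild-type I/R kidneys, 7.01 in knockout kidneys and 7.41 in wild-type kidneys.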

How the data were processed

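RNA sequencing of 8 mouse kidney samples in 4 groups of 2 was analysed from 1 table of FPKM per gene that the authors deposited. The submitters' processing notes name featureCounts (1.5.0-p3), DESeq2 (1.20.0) and build GRCm39. Not given in the sources used here are the aligner, the filters and the strand setting. The deposited coordinates are those of GRCm38, since 53585 of 54495 genes matched by identifier to GENCODE M21 had identical coordinates. Each FPKM value was a whole number of reads within 0.05 reads, so reads could be recovered (100% of values).

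The tested genes were those whose FPKM averaged 1 or more across the 8 libraries. On log2(FPKM + 1), limma 3.58.1 (R 4.3.3) estimated 1 mean per group with a mean-variance trend, which left 4 residual degrees of freedom. Calls were two-sided; p-values of 13304 genes were adjusted by Benjamini-Hochberg, with a threshold of 0.05. Simulated data served to test the fit. Verbs of change refer to called genes. Differences on this scale understate changes of low genes.

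Members, lists and tests were chosen with earlier results of these data known. Each list is represented by at most 4 called genes of largest difference (without calls, by its 2 most abundant). The 6 genes of like pattern were taken by smallest root-mean-square difference, leaving out members and symbols starting with Gm or Rp or ending in Rik. Other named genes were chosen after their values were seen. Promoter sequences come from RefSeq (GRCm38.p6). Alternatives were the pseudocount, the filter, the scaling, the trend, the groups in the fit, a replicate block, leaving out each library, and limma-voom on recovered reads, which was chosen after seeing the data.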

Additional observations from a re-analysis of the deposited data

Results flagged for a closer look

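None of the 10 macrophage and monocyte genes met a criterion for a closer look, and groups of 2 libraries are too small for a test of single outlying samples. In the wider lists the I/R difference itself differed between the genotypes by the interaction term in 4 genes. It was -1.28 for Il34, -1.16 for Lgals3 and -1.19 for Spp1, each with the smaller difference in the knockout. For Cd8a, which rose in the knockout and fell in the wild type, it was 1.98. Trac, the other tested T cell marker, was not called, at 0.55 ± 0.55. Which cells of the kidney held these RNAs was not tested. The limma adjusted p was 0.0450 for Il34, 0.0323 for Lgals3, 0.0450 for Spp1 and 0.0419 for Cd8a. All 4 calls were lost under the replicate block and without knockout I/R library 1 or 2, wild-type I/R library 1 or 2, knockout library 1 or wild-type library 1 or 2.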

How the results depend on the processing

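Between knockout and wild type after I/R, 2 of the 8 tested genes were called, Cd14 and Plac8. Dropping the filter left 0, a filter at 0.1 FPKM left 1, and leaving out each library in turn left 0 to 2. Lone libraries are assumed to vary like the other groups. The I/R count in the knockout was 6 to 7 when libraries were left out. Over all alternatives and comparisons of the single macrophage and monocyte genes, 616 values kept their direction and side of the threshold. Of the rest, 15 lost the threshold, 6 gained it and 15 changed direction, all of the last 15 without a single library and none of them called. Cd163 and Trem2, not tested in the main setting, were counted there as not called. The gains thus include Trem2 with a lower filter or none, beside Csf1r with equal sums.

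The labels do not say whether replicate numbers pair the samples. Correlations of same-numbered deviations between groups ran from -0.0827 to 0.161. They cannot settle it, since each group gives a single difference between its 2 libraries. With the replicate block the counts of called genes among the 8 stayed at 7 and 7 for I/R in knockout and wild type, 2 for the genotypes after I/R, 0 without I/R and 0 for the interaction. Over all genes the block gave 461 calls in place of 800 for the genotypes after I/R and 9 in place of 38 for the interaction.

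Calls over all genes in the genotype comparison after I/R were 305 with no filter, 528 with the filter at 0.1 FPKM and 1523 with limma-voom, and 8 to 1262 when libraries were left out. For I/R in the knockout they were 1790 with no filter, 1556 with only the groups compared and 583 to 3305 without single libraries, against 2748. For I/R in the wild type they were 3181 to 5453 without single libraries, against 4992. For the interaction they were 14 with a pseudocount of 0.1, 13 with the filter at 0.1 FPKM, 61 with equal sums, 190 with limma-voom and 0 to 206 without single libraries. With equal sums the share of calls that were higher was 84.4% against 43.3% for I/R in the knockout, 79.5% against 46.5% in the wild type and 20.1% against 46.4% for the genotypes after I/R. The library size behind the FPKM, relative to the reads, also differed with I/R and, after I/R, between the genotypes. The cause of the shift in these shares was not tested. The planned count models on recovered reads were not run. Depth limits Cd163 and Trem2, which have 5 to 119 reads in a library.

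Where a direction turned, the lowest and highest differences without single libraries were as follows. Without I/R, knockout against wild type ran from -0.15 to 0.24 for Adgre1, -0.35 to 0.10 for Csf1r, -0.48 to 0.0057 for Cd68, -1.31 to 0.31 for Lyz2 and -0.29 to 0.19 for Mrc1. In the same comparison it ran from -0.13 to 0.33 for Csf1, -0.26 to 0.29 for Spi1, -0.025 to 0.14 for Mertk and -0.10 to 0.21 for C1qb. After I/R it ran from -0.13 to 0.066 for Csf1r. The interaction ran from -0.14 to 0.32 for Csf1r, -0.97 to 0.66 for Lyz2 and -0.38 to 0.10 for Mrc1, and I/R in the knockout from -0.17 to 0.13 for Il34. With equal sums, Il34 with I/R in the knockout was 0.22, and the genotypes without I/R differed by -0.024 in Spi1, -0.0054 in Mertk and -0.010 in C1qb.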
